A study of Mus musculus with 8 samples.

Results

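The 45 genes described here encode homeobox and paired-box transcription factors known chiefly as regulators of the diencephalon, midbrain, hindbrain, spinal cord, eye and sensory placodes, and they were taken by symbol from a prepared list out of the 48709 genes of the deposited tables. That list was chosen with earlier results of these data known. Messenger RNA was sequenced from the P3 dorsal telencephalon (dTel, labelled cortex) of 4 control and 4 dcKO_hGFAP-Cre mice on a C57BL/6J background. The dcKO_hGFAP-Cre mice carry floxed alleles at both copies of BAF155 (gene Smarcc1) and BAF170 (gene Smarcc2), the scaffolding subunits of the chromatin remodelling BAF complex, with the hGFAP-Cre transgene. The controls are named WT in the sample titles, whereas the methods describe controls with 1 floxed copy of each gene and the same Cre, so the control genotype is given as control only. In this line a human GFAP promoter drives Cre in dTel radial glial cells during later corticogenesis, so cells born earlier or outside that lineage keep both genes, and the mutants are reported to die soon after birth.

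Homeobox proteins bind DNA through a helix-turn-helix domain, and Pax proteins through a paired domain. Along the neural tube they are switched on in bands set by signals from the roof plate, the floor plate and the isthmus between midbrain and hindbrain, and pairs of them repress each other so that each band keeps its own identity. Most are held silent in the telencephalon, although Otx1 is a known gene of deep-layer cortical neurons.

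Promoters of 4 genes are printed because these members were at or near 0 counts in control cortex and called higher in dcKO_hGFAP-Cre cortex. These are the 250 bases before the first listed RefSeq start on GRCm38.p6, written 5′ to 3′ on the gene's strand, with each CG dinucleotide in capitals.
Shox2, chr3:66981772-66982021, minus strand: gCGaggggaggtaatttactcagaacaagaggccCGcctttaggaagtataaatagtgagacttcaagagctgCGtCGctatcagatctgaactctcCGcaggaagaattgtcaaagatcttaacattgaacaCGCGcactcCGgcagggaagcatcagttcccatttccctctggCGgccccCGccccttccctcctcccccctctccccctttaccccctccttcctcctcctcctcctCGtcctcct
Gbx2, chr1:89931177-89931426, minus strand: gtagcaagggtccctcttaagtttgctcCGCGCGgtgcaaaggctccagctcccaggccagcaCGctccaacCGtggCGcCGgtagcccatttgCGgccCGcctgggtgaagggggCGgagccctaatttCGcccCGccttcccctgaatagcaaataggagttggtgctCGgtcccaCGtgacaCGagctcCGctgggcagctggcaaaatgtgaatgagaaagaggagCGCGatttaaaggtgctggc
Pou4f1, chr14:104468000-104468249, minus strand: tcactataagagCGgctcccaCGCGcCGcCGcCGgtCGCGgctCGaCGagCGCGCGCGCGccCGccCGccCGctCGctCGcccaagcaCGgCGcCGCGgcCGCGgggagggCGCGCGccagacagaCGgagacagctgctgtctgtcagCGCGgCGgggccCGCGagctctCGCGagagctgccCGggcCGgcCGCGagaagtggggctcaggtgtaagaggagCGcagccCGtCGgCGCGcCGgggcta
Evx2, chr2:74659558-74659807, minus strand: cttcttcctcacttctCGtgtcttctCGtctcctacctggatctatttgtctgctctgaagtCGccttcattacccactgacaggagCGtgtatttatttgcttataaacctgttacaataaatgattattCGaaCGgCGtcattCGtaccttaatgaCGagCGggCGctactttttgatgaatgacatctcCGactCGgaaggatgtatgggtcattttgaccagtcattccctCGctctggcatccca
A promoter of 300 bases (250 before and 50 after the start) was found in the RefSeq table for 34 of the 45 genes. The other 11 are Otx1, Rax, En2, Pax3, Irx1, Irx5, Irx6, Gbx1, Pou4f3, Pitx1 and Alx1. Within 300 bases, Shox2 held 11 CG, Gbx2 27, Pou4f1 57 and Evx2 16. The median was 18 CG over the 34 promoters, with a range from 2 to 57, against 7 over all 27025 promoters in the table and 20 over those of the genes that passed the filter on low counts. The homeodomain core motif TAATTA, which reads the same on both strands, occurred in 3 of the 34 (8.82%, in Otx2, Uncx and Barhl1) and in 5.31% of all promoters and 2.55% of those of genes that passed the filter. All 250 printed bases of Gbx2 lie in an annotated exon of the noncoding gene D130058E05Rik on the opposite strand, whereas the windows of Shox2, Pou4f1 and Evx2 contain no annotated exon.

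Libraries held between 21126713 and 32110285 counts, so that 3 counts corresponded to between 0.0906 and 0.148 CPM (counts scaled to a common library size with edgeR's TMM factors). The deleted genes were lower in every mutant than in every control: on the log2 scale Smarcc1 changed by -0.97 (edgeR adjusted p = 5.44e-06) and Smarcc2 by -0.77 (edgeR adjusted p = 2.28e-05). Cortex markers were detected in every sample, and the summed level of 6 of them was 1289 to 1457 CPM in control and 588 to 676 CPM in dcKO_hGFAP-Cre, and 5 of the 6 were lower. Markers of choroid plexus separated the mutants: Ttr, the transthyretin gene of choroid plexus epithelium, was at 584 and 1128 CPM in dcKO_hGFAP-Cre replicates 1 and 2, at 15.8 and 1.72 CPM in replicates 3 and 4, and between 0.0664 and 9.37 CPM in controls. Every sequencing lane held both groups, with 2 samples of each on lane 5 (replicates 1 and 2) and 1 of each on lanes 6 and 7. In bulk tissue, fewer or more cells of a type and less or more RNA per cell cannot be told apart.

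Of the 45 genes, 3 (Rax, Irx4 and Six6) had no count in any sample and 42 had at least 1. With edgeR's default filter on low counts, 12 of the 45 were tested, and 9 were higher and 1 lower in dcKO_hGFAP-Cre at an adjusted p under 0.05, while over all 16525 genes tested 18.6% were higher and 18.9% lower. Scaling by library totals gave 10 higher and 1 lower member, and moved the split over all genes from 3074 higher and 3128 lower to 4584 and 2102. A gene that is silent in control passes this filter only through the mutant samples, so all 42 detected genes were also fitted without it. There 17 were higher (40.5% of the 42), against 10.2% of the 30608 detected genes. None was lower in that fit, against 9.87% of all genes, although 1 (Dbx2) had an unadjusted edgeR p under 0.05. DESeq2, which gave no adjusted p for 17 of the 42, called 14 higher and 1 (Dbx2) lower. Over all 30608 detected genes it called 3139 higher and 3430 lower. Without any model, 15 of the 42 (35.7%) had every mutant above every control, against 10.5% of all detected genes, and 0 had every mutant below, against 10.1%. Because the members were chosen with earlier results of these data known, these shares describe the list and are not an independent test.

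By territory, 6 of 10 genes of the diencephalon and hypothalamus, 5 of 10 of the midbrain and isthmus, 2 of 6 Iroquois genes, 3 of 10 of the hindbrain and spinal cord and 1 of 9 of the eye, placode and mesenchyme were higher in the fit without the filter. By protein class these were 6 of 17 of the Antennapedia and NK class, 4 of 9 paired-like and 3 of 5 Pax genes. They also included 2 of 6 Iroquois, 1 of 2 LIM and 1 of 3 POU4 genes, and none of Six2, Six4 and Six6. The denominators include Rax, Irx4 and Six6, which had no count. In the same fit without the filter, 10.2% of the 30608 detected genes were higher. Among the 30 members with at least 10 counts in all, 29 had a positive log2 fold change, where 55.2% of the 22060 genes with that many counts were positive. Their median was 1.72, with Evx2 at its ratio against 3 control counts as well as at its fitted value. The median of all 22060 was 0.06. A gene silent in control reaches 10 counts only through the mutant samples, so this cut favours positive values. Of the detected members it left out, Dbx1, Pou4f3, Nkx2-9 and Tlx1 had a negative log2 fold change and the others a positive one.

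**Figure D1:**
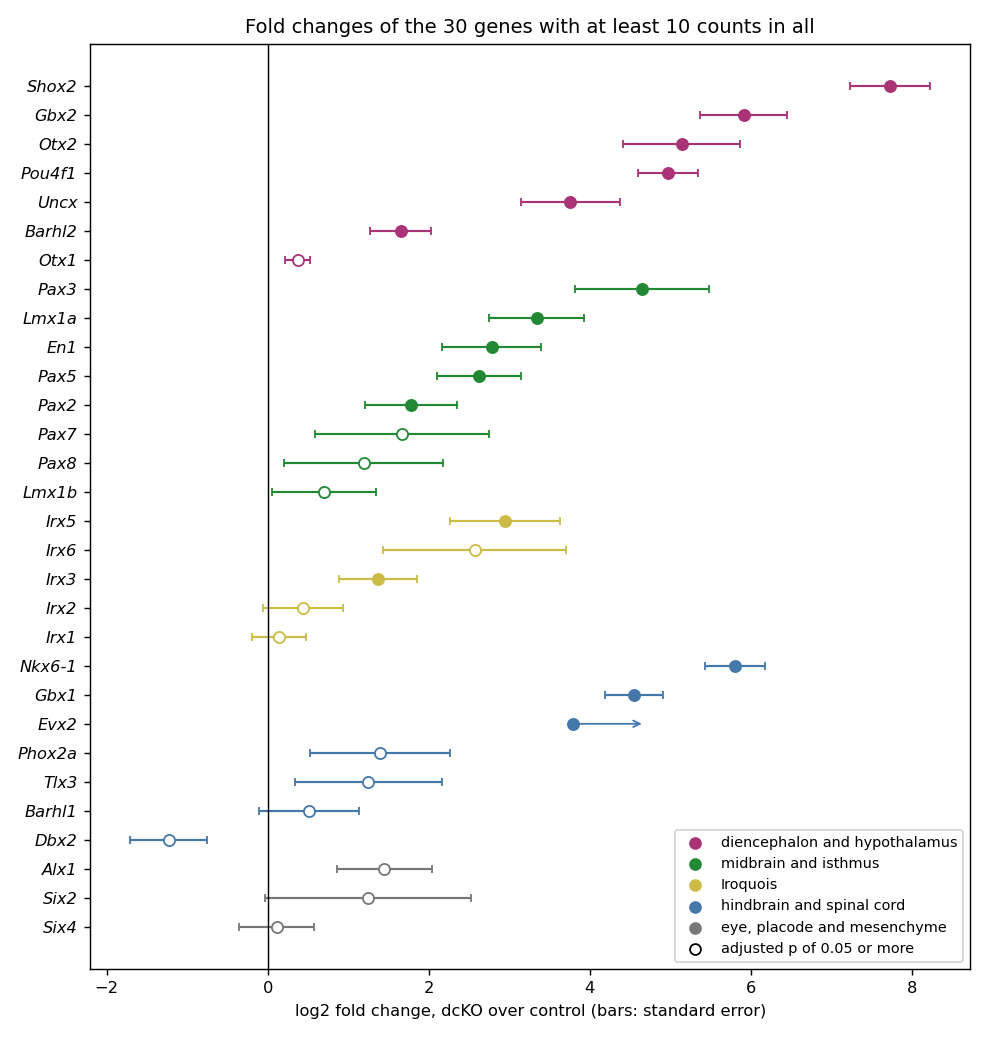
Log2 fold change of dcKO_hGFAP-Cre over control (horizontal axis, with standard error) in the edgeR fit without a filter, for the 30 members with at least 10 counts, coloured by territory; filled points have an adjusted p under 0.05. Evx2 stands at its ratio against 3 control counts, with an arrow because all controls were at 0. Dbx2, at -1.23, is the one of these 30 below 0.

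Shox2, a paired-like factor best known in limb, heart pacemaker and thalamus, showed the largest rise among the members. It lies at chr3:66971727-66981771 on mm10 (ENSMUSG00000027833). The control samples had 1, 6, 0 and 0 counts and the mutants 409, 404, 373 and 545, which is 0.046, 0.296, 0 and 0 CPM against 17.5, 17.1, 12.7 and 16.5 CPM. The mutants all lay far above the controls, and control replicate 2 alone held most of the control counts. The log2 fold change was 7.73 (standard error 0.47, edgeR adjusted p = 1.6e-06) and 9.87 without that control. The level was even among mutants, with a coefficient of variation of 13.7%. Its annotation shares 153 exonic bases (4.62%) with Rsrc1 on the opposite strand, which was itself 0.47 higher on the log2 scale, and the library kit does not keep the strand.

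Otx1 and Otx2, paired-like relatives of the fly orthodenticle gene that pattern the forebrain and midbrain, were far apart in level in control cortex. Otx1 was the most abundant member in control cortex, at 24.9, 18.0, 22.0 and 21.9 CPM, and was at 28.1, 30.5, 19.0 and 35.3 CPM in mutants. The groups overlapped, since mutant replicate 3 was below 3 of the controls, and the log2 fold change of 0.38 (standard error 0.17) did not pass (edgeR adjusted p = 0.0956). It passed without that mutant (0.53, edgeR adjusted p = 0.00516) and with library totals (0.50, edgeR adjusted p = 0.0357). This gene goes against the name of the list, as it made up 66.7 to 72.9% of the summed member CPM of each control sample.

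Otx2 (chr14:48657677-48673819, ENSMUSG00000021848), which marks midbrain, pretectum and choroid plexus, was at 0.276, 0.247, 0.232 and 0.0694 CPM in controls and 8.55, 13.6, 3.07 and 3.96 CPM in mutants. All mutants exceeded all controls, with replicates 1 and 2 above replicates 3 and 4. The fitted log2 fold change was 5.15 (standard error 0.63, edgeR adjusted p = 0.000317). Both high mutants were those with high Ttr, and without them the log2 fold change was 4.11 (edgeR adjusted p = 0.000178). In mutant replicate 4, where Ttr (1.72 CPM) lay within the control range, Otx2 was at 3.96 CPM.

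Gbx2 (chr1:89927956-89931179, ENSMUSG00000034486) specifies thalamic neurons and, earlier, the anterior hindbrain. Its counts were 0, 1, 1 and 0 in controls and 33, 46, 32 and 50 in mutants. With only 2 control counts, the ratio of summed counts scaled to library size was 74.3 (95% exact interval 20.2 to 618, counting error only), and the fitted log2 fold change was 5.92 (standard error 0.51, edgeR adjusted p = 6.09e-06). Its annotation shares 946 exonic bases (43.5%) with the antisense gene D130058E05Rik, which had 0, 0, 0 and 1 counts in controls and 6, 3, 8 and 10 in mutants. How reads of the shared bases were assigned is not given in the sources used here.

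Pou4f1, a POU-domain factor of habenula and sensory neurons (chr14:104461676-104467999, ENSMUSG00000048349), was at 0.184, 0.0986, 0.0332 and 0.104 CPM in controls and at 3.08, 4.41, 2.73 and 3.02 CPM in mutants. No value of one group came near the other. On the log2 scale the rise was 4.98 (standard error 0.35, edgeR adjusted p = 1.65e-06). Its relatives Pou4f2, which marks retinal ganglion cells, and Pou4f3, of inner ear hair cells, stayed near the floor, with 1 and 5 counts over all controls and 5 and 3 over all mutants.

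Barhl2 (chr5:106452523-106458166, ENSMUSG00000034384), a Bar-class factor of diencephalon and retina, was detected in every control, at 0.920, 0.394, 0.432 and 0.972 CPM, and was at 1.88, 4.03, 1.30 and 1.54 CPM in mutants. The groups did not overlap, but the lowest mutant was close to the highest control. The fitted rise was 1.66 on the log2 scale (standard error 0.41, edgeR adjusted p = 0.00868). It was 1.05 and no longer passed without the high-Ttr mutants, replicates 1 and 2 (edgeR adjusted p = 0.0934). Uncx, a paired-like factor of diencephalon, midbrain and somites, had 2, 2, 0 and 0 counts in controls and 18, 17, 11 and 20 in mutants. That is a log2 fold change of 3.76 without the filter (edgeR adjusted p = 2.97e-06). Nkx2-4 and Dbx1 of the hypothalamus had 1 and 4 counts over the controls and 4 and 1 over the mutants.

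**Figure D2:**
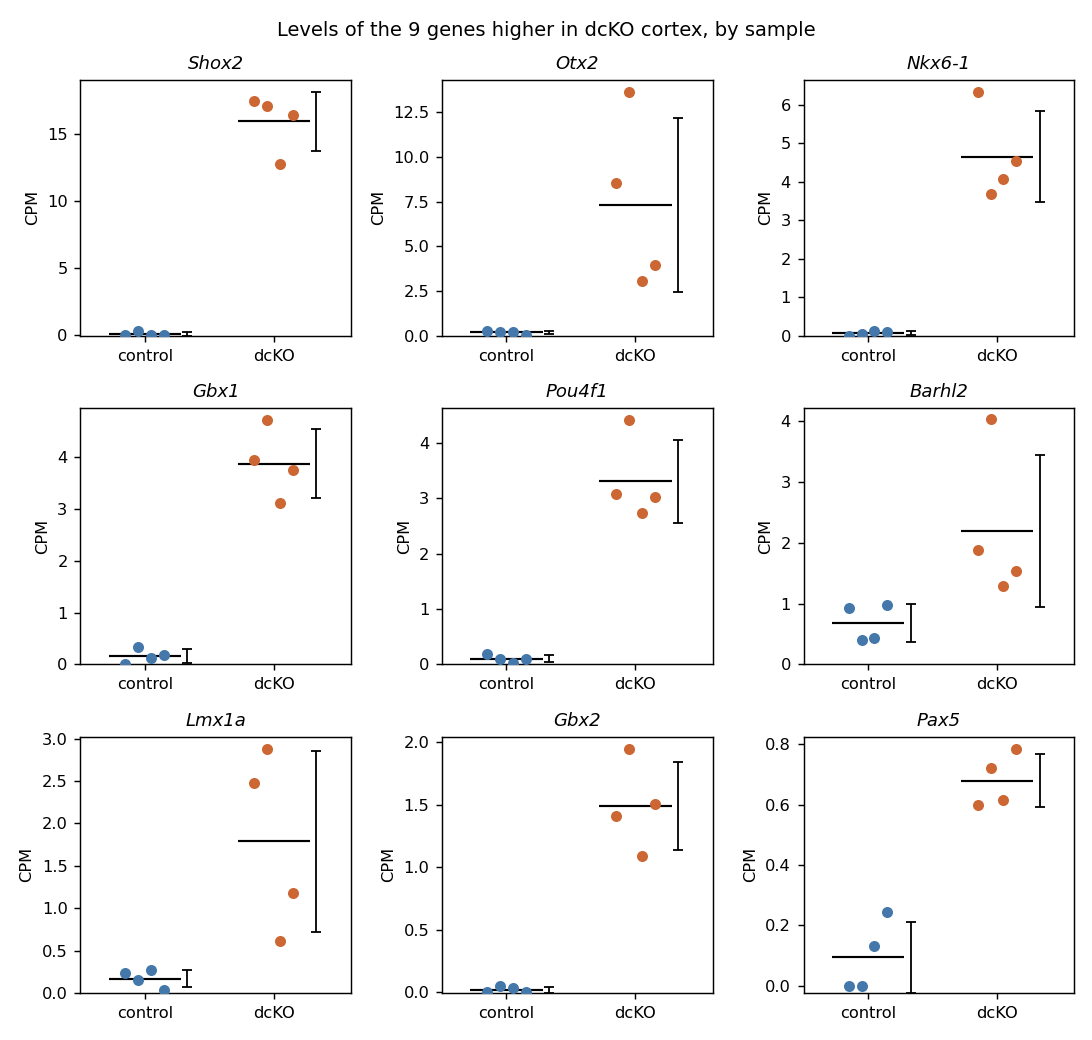
CPM (vertical axis, from 0 or, where an error bar reaches lower, just under it) of the 9 members called higher with the filter, in each of 4 control and 4 dcKO_hGFAP-Cre samples; lines are means and bars the SD (n = 4). In each panel the mutant points lie above all control points, closest for Barhl2.

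The isthmic genes Pax2, Pax5, Pax8, En1 and En2, which together set the border of midbrain and hindbrain, differed in level. Pax5 (chr4:44524757-44710487, ENSMUSG00000014030) was at 0, 0, 0.133 and 0.243 CPM in controls and 0.599, 0.720, 0.614 and 0.785 CPM in mutants. The 4 mutants were close to each other and above all controls, and control replicates 1 and 2 were at 0. A log2 fold change of 2.62 was fitted (standard error 0.56, edgeR adjusted p = 0.0033), and one of 3.53 without control replicate 4 (edgeR adjusted p = 0.00227). The antisense genes Gm12462 and 5730488B01Rik share 125 and 636 of its exonic bases.

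En1 had 1, 0, 5 and 0 counts in controls and 14, 8, 11 and 14 in mutants, a log2 fold change of 2.78 without the filter (edgeR adjusted p = 0.000475). Pax2 had 3, 1, 2 and 3 against 8, 8, 5 and 14 counts, a log2 fold change of 1.78 (edgeR adjusted p = 0.0187; DESeq2 adjusted p = 0.051). In both genes every mutant was above every control in CPM. En2 had 2 counts over the controls and 4 over the mutants, and Pax8 had 3 and 8, and neither passed (edgeR adjusted p = 0.708 and 0.475).

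Lmx1a (chr1:167689237-167848741, ENSMUSG00000026686), a LIM homeobox factor of the roof plate, cortical hem and midbrain dopaminergic progenitors, was at 0.230, 0.148, 0.266 and 0.0347 CPM in controls and 2.48, 2.88, 0.614 and 1.18 CPM in mutants. All mutants were above all controls, and replicates 1 and 2 were again highest. On the log2 scale Lmx1a rose by 3.35 (standard error 0.59, edgeR adjusted p = 0.00125), and 2.39 without those replicates (edgeR adjusted p = 0.0163). Lmx1b, which acts with it in dopaminergic neurons and alone in serotonergic neurons, had 0, 3, 5 and 4 against 8, 2, 9 and 2 counts and did not pass (log2 fold change 0.70, edgeR adjusted p = 0.48). Pitx3, a factor of mature dopaminergic neurons and lens, had 1 count in all 8 libraries.

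Pax3 and Pax7 mark dorsal neural tube and neural crest. Pax3 had 1, 0, 0 and 0 counts in controls and 5, 13, 9 and 13 in mutants, a ratio of 36.9 (95% exact interval 6.25 to 1490; edgeR adjusted p without the filter = 1.6e-05). Pax7 had 2 counts over the controls and 8 over the mutants and did not pass (edgeR adjusted p = 0.322).

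Among the Iroquois genes, which pattern the thalamus, midbrain and hindbrain as well as heart and limb, the chromosome 8 cluster and the chromosome 13 cluster can be set side by side. On chromosome 8, Irx3 had 4, 3, 6 and 6 counts in controls and 9, 23, 5 and 16 in mutants (log2 fold change 1.37, edgeR adjusted p = 0.0327 without the filter; DESeq2 adjusted p = 0.0778). Irx5 had 4, 1, 0 and 0 against 11, 15, 5 and 15 counts (2.95, edgeR adjusted p = 0.00101). Irx6 had 0, 1, 0 and 0 against 3, 2, 2 and 2, without overlap in CPM, a ratio of 8.3 with a 95% exact interval of 1.15 to 364, and did not pass (edgeR adjusted p = 0.11).

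On chromosome 13, Irx1 was at 0.644, 0.345, 0.730 and 0.694 CPM in controls and 0.727, 0.720, 0.648 and 0.634 CPM in mutants. The groups overlapped fully, and the log2 fold change was 0.15 (standard error 0.28, edgeR adjusted p = 0.712). Irx2 had 24 counts over the controls and 35 over the mutants (log2 fold change 0.44, edgeR adjusted p = 0.567), and Irx4 had none. The difference between the clusters was not tested.

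In the hindbrain and spinal cord group, Nkx6-1, a factor of ventral progenitors and motor neurons (chr5:101658139-101664996, ENSMUSG00000035187), was at 0, 0.0493, 0.133 and 0.104 CPM in controls and 6.33, 3.69, 4.06 and 4.53 CPM in mutants. Every mutant stood far above every control. Nkx6-1 was 5.80 higher on the log2 scale (standard error 0.40, edgeR adjusted p = 1.4e-06). Its highest mutant was replicate 1 and its lowest was replicate 2, the samples in which Ttr was high.

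Gbx1 (chr5:24502757-24527202, ENSMUSG00000067724), the relative of Gbx2 in dorsal spinal interneurons, was at 0, 0.345, 0.133 and 0.174 CPM in controls and 3.93, 4.70, 3.10 and 3.74 CPM in mutants. The groups were well apart, and the log2 fold change was 4.56 (standard error 0.41, edgeR adjusted p = 8.5e-06). Evx2, an even-skipped homologue of ventral spinal interneurons beside the HoxD cluster (chr2:74652991-74659557), had no count in any control and 16, 7, 12 and 10 counts in mutants. Set against 3 counts over the control group, this is 13.8-fold higher (edgeR adjusted p without the filter = 8.81e-07). That ratio makes no allowance for counting error in the mutants. Its relative Evx1 had 1 count in all.

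Dbx2, a factor of spinal interneuron progenitors (chr15:95623563-95655960, ENSMUSG00000045608), was the other member with a mean above 1 CPM in control cortex, and the one called lower. It was at 4.42, 5.47, 5.38 and 5.94 CPM in controls and 1.28, 1.27, 4.84 and 1.54 CPM in mutants. Mutant replicate 3 fell inside the control range while the other 3 were well below it, so the groups overlapped (two-sided exact permutation test, p = 0.0571). The log2 fold change was -1.23 (standard error 0.40, edgeR adjusted p = 0.0355), and -1.95 without that mutant (edgeR adjusted p = 1.14e-05). The call was lost on leaving out any of control replicates 2, 3 and 4 or mutant replicates 1, 2 and 4 (edgeR adjusted p from 0.0717 to 0.0949) and without the filter (edgeR adjusted p = 0.142).

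The remaining genes of this group were near the floor. Phox2a, of noradrenergic and cranial motor neurons, had 4 counts over the controls and 12 over the mutants. Tlx3, of dorsal glutamatergic interneurons, had 4 and 11, and Barhl1, of cerebellar granule and commissural neurons, 12 and 19. None passed the test (edgeR adjusted p from 0.304 to 0.593). Tlx1 and Nkx2-9 had 1 and 2 counts over the controls and none in mutants.

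**Figure D3:**
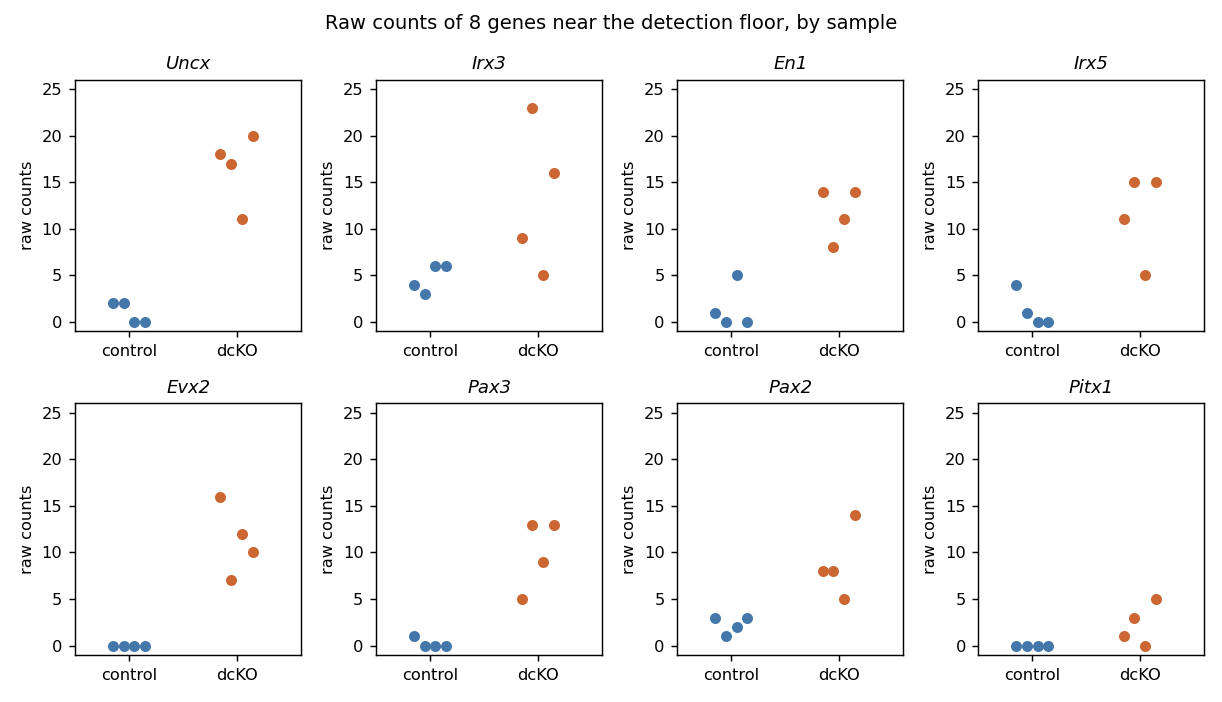
Raw counts (vertical axis, the same in each panel) of the 8 members that edgeR called higher without the filter on low counts but not with it, over all 8 samples, in each of 4 control and 4 dcKO_hGFAP-Cre samples. Evx2 and Pitx1 are at 0 in all controls, and no mutant exceeds 23 counts, the value of Irx3 in replicate 2.

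In the group of the eye, placodes and mesenchyme, Pitx1, a factor of hindlimb and pituitary, was the one gene called, from 0 counts in controls and 1, 3, 0 and 5 in mutants. This is 2.77-fold higher against 3 counts over the controls (edgeR adjusted p without the filter = 0.0309), with mutant replicate 3 also at 0. That ratio makes no allowance for counting error in the mutants. DESeq2 gave Pitx1 no adjusted p and an unadjusted p of 0.0829, and the two-sided exact permutation test of its CPM gave p = 0.143. Six2, of kidney and craniofacial mesenchyme, had 7, 1, 16 and 0 counts in controls and 39, 4, 13 and 2 in mutants. Alx1, of craniofacial mesenchyme, had 3, 3, 4 and 1 against 11, 6, 14 and 2. Neither passed the test (edgeR adjusted p = 0.55 and 0.0782).

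The summed level of 10 meningeal and mesenchymal markers was 141, 99.5, 260 and 88.7 CPM in controls and 413, 143, 321 and 41 CPM in mutants, and 0 of the 10 were called by edgeR (0 at an unadjusted p under 0.05, 0 by DESeq2). In mutants, Six2 was highest where these markers were highest and lowest where they were lowest, and Alx1 was lowest in that same sample. Their part in the Six2 and Alx1 counts was not tested. Six4, a gene expressed in many tissues, had 31 counts over the controls and 36 over the mutants (edgeR adjusted p = 0.912). Hmx2 and Hmx3, of hypothalamus and inner ear, had 1 and 0 counts over the controls and 2 each over the mutants.

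Levels between genes were compared as CPM per kilobase of exonic sequence. In control cortex Otx1 was first at 4.00 CPM per kb, followed by Dbx2 at 1.53, Barhl2 at 0.294 and Irx1 at 0.230. In dcKO_hGFAP-Cre cortex Otx1 was at 5.20 and Shox2 at 4.82 CPM per kb, and then came Otx2 at 1.73, Nkx6-1 at 1.48, Gbx1 at 1.11 and Barhl2 at 0.945. The summed CPM of the 45 members was 34.2, 27.0, 31.9 and 31.3 in controls and 84.0, 91.8, 58.3 and 78.6 in mutants. Without Otx1 and Dbx2, the members highest in control cortex, it was 3.47 to 4.83 CPM in controls and 34.4 to 60.0 CPM in mutants. Replicate 3 was the lowest mutant. This second contrast is larger because it leaves out members with high control levels.

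The 9 higher genes spread among the mutants in unlike ways. The coefficient of variation over the 4 mutants was 13.1% for Pax5, 13.7% for Shox2, 17.0% for Gbx1, 22.6% for Pou4f1, 23.8% for Gbx2 and 25.2% for Nkx6-1. It was 57.2% for Barhl2, 59.8% for Lmx1a and 66.5% for Otx2. Counting error alone gives 23.1% for Pax5, 4.81% for Shox2 and 7.34% for Otx2. Barhl2, Lmx1a and Otx2 were each highest in mutant replicate 2, next in replicate 1 and lowest in replicate 3, and Ttr was high in replicates 1 and 2.

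**Figure D4:**
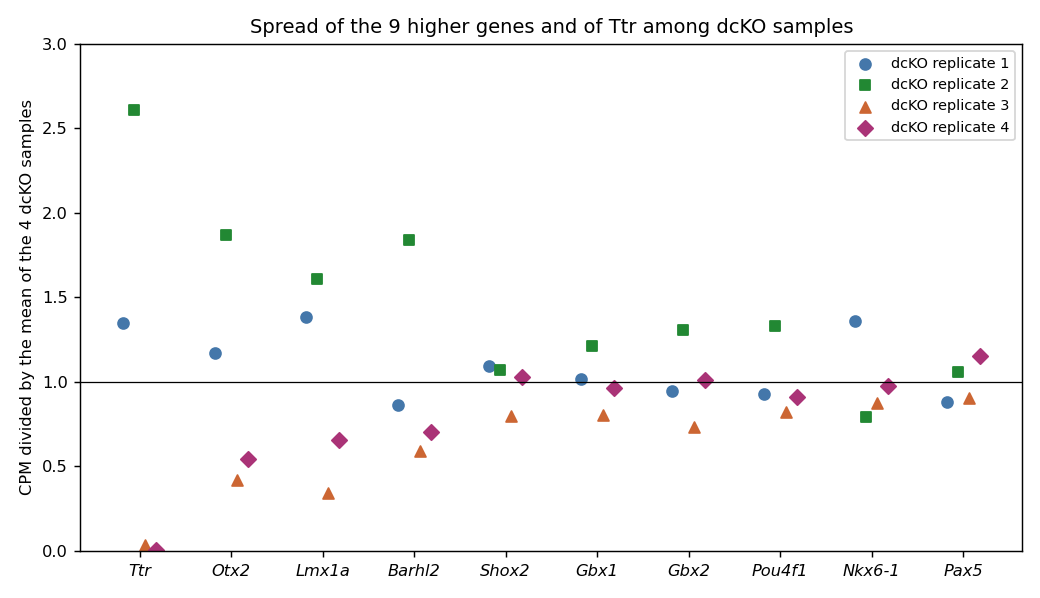
CPM of Ttr and of the 9 higher members in each dcKO_hGFAP-Cre sample, divided by the mean of the 4 mutants (vertical axis, line at 1). Ttr, Otx2 and Lmx1a are above their mean in replicates 1 and 2 and below it in replicates 3 and 4, while the points of Shox2, Gbx1 and Pax5 stay close to 1.

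Over the 12 choroid plexus markers, the summed level was 9.99 to 18.4 CPM in controls and 633, 1200, 25.1 and 10.5 CPM in mutants, and 2 (Clic6 and Kcne2) of the 8 tested were higher by edgeR and 8 of the 12 were called by DESeq2. Their part in the levels of Otx2, Lmx1a and Barhl2 was not tested beyond leaving those samples out. Without mutant replicates 1 and 2, 10 of the 15 members tested were higher, among them 8 of the 9, against 8.06% of all genes tested there. Uncx and En1, also among the 10, had not passed the filter in the main fit. Members silent in control pass the filter only through the mutants left. In mutant replicate 4, whose choroid plexus sum was within the control range, each of the 9 genes was above every control. With the lane as a block 9 of the 12 members tested were higher and 1 lower, against 3208 higher and 3242 lower of 16525 genes tested. Lanes 6 and 7 held too few samples for a value of their own.

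Markers of neurons of the same territories were mixed in direction. Of 10 thalamic neuron markers, all tested, 2 were higher (Calb2, log2 fold change 1.55, and Tcf7l2, 0.60) and 3 lower (Prkcd, -1.0, and Grid2ip, -0.82, among them), with a median of -0.05. Of 12 transmitter genes of midbrain and hindbrain neurons, 8 were tested, 2 were higher (Slc18a3, 1.44, and Th, 1.36) and 1 lower (Tph2, -1.03). Of 11 hypothalamic peptide genes, 4 were tested and none was called by edgeR (1 at an unadjusted p under 0.05, 1 by DESeq2). The share of all genes called in each direction (18.6% and 18.9%) stands beside these counts.

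Other homeobox and T-box genes were counted from lists chosen for their place in the same network. Of 16 patterning genes of the dorsal telencephalon, 5 were higher (Lhx9, 2.70, and Pax6, 1.28, most) and 9 lower (Pou3f1, -2.67, among them), with a median log2 fold change of -0.39. Of 15 of the ventral telencephalon, 14 were tested, 13 were higher (Isl1, 3.43, and Six3, 2.28, most) and 1 was lower (Nkx2-2, -0.97), with a median of 0.97. Of 29 near relatives of the members, 13 were tested, 6 were higher and 2 lower. Over all genes tested, 18.6% were higher and 18.9% lower.

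The protein-coding genes flanking the members were examined on both sides. The 9 higher members had 18 such neighbours, of which 16 were tested, 2 were higher and 7 lower, with a median log2 fold change of -0.17, where 18.6% of all genes tested were higher and 18.9% lower. The 17 members higher without the filter had 31 neighbours, with 26 tested, 3 higher and 8 lower, and the other 28 members had 48, with 39 tested, 5 higher and 10 lower. Iroquois genes that neighbour each other, and Hmx2 and Hmx3, are members and neighbours at once in these last counts. In promoter sequence, the 13 promoters found for the 17 higher members had a median of 23 CG and the other 21 a median of 18, with ranges of 6 to 57 and 2 to 39.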

How the data were processed

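RNA from P3 dTel was made into cDNA libraries with the TruSeq RNA Sample Preparation v2 kit, which does not keep the strand. Per the methods, the authors used the mm10 genome and featureCounts, and they deposited 1 table of raw, unnormalized counts per sample. Aligner, annotation and handling of reads matching several genes are not given in the sources used here, so counts of overlapping genes are uncertain. Of 48709 Ensembl identifiers, 48349 were matched to GENCODE M21.

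The counts were tested across all genes with edgeR (version 4.0.16; R version 4.3.3), using TMM, the default filter on low counts (minimum count 10), the robust quasi-likelihood F test and Benjamini-Hochberg adjustment (threshold 0.05), after tests on simulated data. Alternatives were DESeq2 (version 1.42.0), limma-voom (limma version 3.58.1), other scalings and filters, blocks and samples left out. Exact permutation tests used 70 arrangements and cannot go below p = 0.0286. Samples are separate dTel by the methods, with litters not given, and no pair of replicates agreed within counting noise. Intervals cover counting error only.

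The members and lists were chosen with earlier results of these data known. Values in every sample are given for called members that changed by at least 1 on the log2 scale and members with a control mean of at least 1 CPM. The rest are given by counts, and at most 4 genes are named per other list. Some genes that this rule names are left out here.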

Additional observations from a re-analysis of the deposited data

Results flagged for a closer look

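Samples far from the rest of their group were looked for in 38 groups of 4 samples, where chance gives about 1.9, and 3 were found. That chance number assumes continuous values and does not apply to groups of a few counts, such as the controls of Shox2 and Pax3. Control replicate 2 stood apart for Shox2, with 0.296 CPM from 6 counts where the other controls had 1, 0 and 0. Mutant replicate 3 stood apart for Dbx2, with 4.84 CPM from 142 counts. Control replicate 1 stood apart for Pax3, with 0.046 CPM, which is a single count against none in the other controls (1 count in all).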

How the results depend on the processing

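The 9 genes called higher were called under every alternative that tested them, except Barhl2 without the mutants of highest Ttr. The number of members higher was 14 of 42 with DESeq2 (10.3% of all genes) and 17 of 42 without the filter (10.2%). It was 0 when at least 10 counts were required in every sample, which left Otx1 and Dbx2 as the 2 members tested. With each replicate left out it ran from 9 to 12, while 13.3 to 20.1% of all genes tested were higher. Members tested there numbered 13 to 17, against 12 in the main fit. Uncx, En1 and Irx5, called in some of these fits, were not tested in the main fit. The number lower, 1 by edgeR, was 0 without the filter and 0 without the mutants of highest Ttr, and 0 to 1 with each replicate left out. Over all genes, 1388 were higher and 1581 lower without those mutants. With each replicate left out, members with every mutant below every control numbered 0 to 1, that gene being Dbx2. Irx1 changed sign once, to -0.03 without control replicate 2, and with each replicate left out lay between -0.03 and 0.25. Whether replicate numbers pair the samples is not stated. The correlations of same-numbered deviations were 0.171, -0.0679, 0.213 and -0.0238, and those of different numbers ran from -0.314 to 0.255. Values this few and this weak cannot show pairing or its absence. With the replicate block 9 of the 12 members tested were higher and 1 lower, against 2932 higher and 2982 lower of 16525 genes tested. Members with a few counts cannot be told from silent genes at this depth.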
